A study of Drosophila melanogaster with 36 samples.

Results

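Whole adult female Drosophila melanogaster of a line selected for heat resistance were compared with females of a nonselected line in late recovery, at 16, 32 and 64 h after 1 h at 36 °C. The comparison used 12 of the 36 arrays of the study, 6 of each line, with 2 bioreplicates for each line and time, and was chosen by line and time, not by a measured value. The other 24 arrays held the same lines untreated and at 0.25, 1, 2, 4 and 8 h, and served only to show how far a late difference was already there. All late flies of both lines had been heated, and no unheated flies of the same age were sampled, so the comparison is of lines and not of heat. The labels give neither the origin of the lines, the number of selected populations, the age of the flies nor how many were pooled, so selection cannot be told apart from any other difference between the 2 stocks. They also do not say whether the bioreplicates were separate cultures or separate populations of a line, so the p-values measure only the spread between these samples.

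Heat shock makes flies produce chaperones, proteins that bind unfolded proteins, and most other transcription falls for a time. In a whole female the RNA comes from several large sources. The ovary contributes germline and eggshell transcripts, the fat body yolk and storage proteins, the gut digestive enzymes, and the thorax and head the transcripts of flight muscle, brain and eye. A line difference in a whole-body sample can therefore lie in any of these, and fewer cells of a type and less RNA per cell cannot be told apart.

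Values are log2 intensities, 1 unit being a 2-fold difference, and an intensity of 32 (5 on this scale) was taken as the lower limit of a usable signal. Of 13966 probe sets that are not controls, 8199 passed this filter. The genes of the yolk proteins, Yp1 to Yp3, which females express, lay at 12.60 or above on all 12 late arrays. One array went against its label. On selected 32 h replicate 2, 28 of 37 male reproductive genes had their highest value of all 36 arrays. The accessory gland gene Acp95EF lay at 9.69 there and at 2.31 or below on the others, and the ejaculatory bulb gene Ebp at 11.62 against 3.68 or below. The counts and the called genes are therefore given with and without this array. Replicate numbers of the late arrays also differed in the control transcripts, whose log2 ratio of 3' over 5' signal was 1.64 to 2.04 in replicate 1 and 1.11 to 1.37 in replicate 2, in both lines and at all 3 times. Within replicate 1 this ratio also differed by line, at 1.97 to 2.04 in the selected and 1.64 to 1.90 in the nonselected arrays. Within replicate 2 the lines overlapped, at 1.15 to 1.30 and 1.11 to 1.37.

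With all 12 arrays, the line difference fitted with time and replicate number as covariates called 0 of 8199 probe sets (0%) at an adjusted p under 0.05. The smallest adjusted p was 0.0666, and 934 probe sets (11.4%) had an unadjusted p under 0.05, 450 higher (5.49%) and 484 lower (5.9%) in the selected line. Without the array that held male transcripts, the same fit on 11 arrays called 13 probe sets (0.159%), 9 higher (0.11%) and 4 lower (0.0488%). The median residual SD was 0.208 log2 units with 12 arrays and 0.158 with 11. When the spread was estimated from all 36 arrays, 77 (0.939%) were called for the same 12-array contrast, and 8 (0.0976%) once the array that held male transcripts was left out. The 13 are described first, followed by gene groups in which no call was made with all 12 arrays.

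The storage protein gene Lsp2, which codes for a hexamerin of the fat body and haemolymph, was lower in the selected line. Its level ran from 4.24 to 5.19 in the 6 selected arrays, with a median of 4.70, and from 5.11 to 7.75 in the 6 nonselected arrays, with a median of 7.30. All 6 pairs of arrays of the same time and replicate number had the lower value in the selected line, and the groups overlapped only through nonselected 64 h replicate 1. The difference was -2.24 (SE 0.29) with 12 arrays and -2.03 (SE 0.25, limma adjusted p = 0.0295) with 11. Since 3 selected arrays lay under an intensity of 32, the selected level was at least 3.70-fold lower with 12 arrays. Without nonselected 64 h replicate 1 the difference was -2.53 and the adjusted p 0.0017, and Lsp2 was then the only probe set called. Of the 12 fits that each left out 1 array, these 2 called Lsp2, and the highest limma adjusted p was 0.295. Lsp2 had already been low in the selected line before heat, at 6.92 and 7.86 against 9.64 and 10.51 in the untreated nonselected flies.

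The cyclin T gene CycT, whose product with Cdk9 releases paused RNA polymerase II, was the only called gene whose 6 arrays of one line did not overlap those of the other. Its level was 7.58 to 7.77 in the selected arrays, median 7.70, and 8.05 to 8.54 in the nonselected arrays, median 8.34. The selected values thus lay within 0.2 log2 units of each other at all 3 times. The difference was -0.62 (SE 0.09) with 12 arrays and -0.58 (SE 0.08, adjusted p = 0.0479) with 11, against -0.35 (SE 0.07) over the arrays before 16 h.

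**Figure D1:**
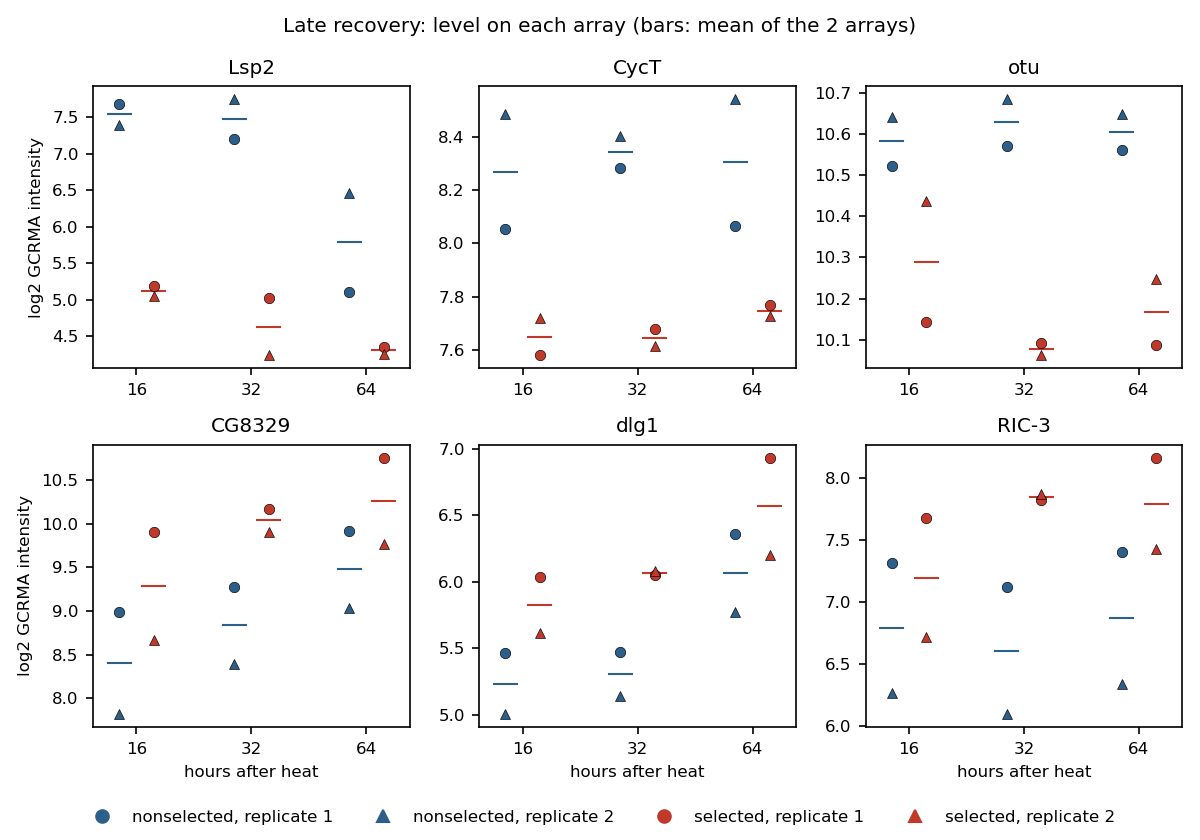
Level of 6 genes on each of the 12 late arrays (y axis, log2 GCRMA intensity) by hours after heat (x axis), with the nonselected line in blue, the selected line in red, circles for replicate 1, triangles for replicate 2 and bars for the mean of the 2 arrays. CycT and otu did not overlap between lines, Lsp2 overlapped only at the nonselected 64 h replicate 1 array (5.11), and CG8329, dlg1 and RIC-3 were higher in the selected line in 6 of 6 pairs.

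The other genes called lower were CG2233 and CG9837. CG2233 ran from 11.98 to 12.59 in the selected arrays and from 12.48 to 13.26 in the nonselected, a difference of -0.72 (SE 0.10, adjusted p = 0.0426) with 11 arrays. It was lower in 5 of 6 pairs, the exception being the pair of the array that held male transcripts. CG9837 showed the same exception and had a difference of -1.10 (SE 0.12, adjusted p = 0.0207) with 11 arrays and -0.79 (SE 0.29, adjusted p = 0.382) with 12. On 3 selected arrays CG9837 lay under an intensity of 32, so it was at least 1.49-fold lower with 12 arrays.

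Among the 9 probe sets called higher in the selected line without that array were those of dlg1, nwk, RIC-3 and 7B2. The scaffold gene dlg1, whose product organises synapses and cell junctions, ran from 5.62 to 6.94 in the selected arrays, median 6.07, and from 5.003 to 6.36 in the nonselected, median 5.47. The ranges overlapped because the level was highest at 64 h in both lines, and within each time and replicate number the selected array was the higher one. The difference was 0.54 (SE 0.07, adjusted p = 0.0424). For nwk, an adaptor protein of the motor neuron terminal, it was 0.48 (SE 0.06, adjusted p = 0.0302), with levels of 5.38 to 5.89 against 4.81 to 5.501. Since 3 nonselected arrays of nwk lay under an intensity of 32, it was at least 1.38-fold higher with 12 arrays. A second probe set of nwk, under that intensity on 11 of the 12 arrays, differed by -0.14.

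RIC-3, a chaperone of nicotinic acetylcholine receptors, ran from 6.72 to 8.17 in the selected arrays, median 7.75, and from 6.10 to 7.41 in the nonselected, median 6.73. Its difference was 0.68 (SE 0.10, adjusted p = 0.0479) with 11 arrays and 0.86 with 12. 7B2, which helps a prohormone convertase of neuroendocrine cells to fold, ran from 4.67 to 5.59 against 3.50 to 4.94. All 6 nonselected arrays of 7B2 were under an intensity of 32, so that with 12 arrays its level was at least 1.20-fold higher, and its adjusted p with 11 arrays was 0.0207.

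The remaining higher calls were CG8329, CG9676, CG8343 and CG11211, and a probe set without a symbol. CG8329 had the smallest adjusted p of all, 0.0083. Its level ran from 8.67 to 10.76 in the selected arrays, median 9.90, and from 7.82 to 9.92 in the nonselected, median 9.01, with a difference of 0.83 (SE 0.07). CG11211 was under an intensity of 32 on all 6 nonselected arrays, where it reached 4.60, and on 1 selected array, and was at least 1.43-fold higher with 12 arrays. CG9676, CG8343 and the probe set without a symbol had differences of 0.63, 0.66 and 0.68 and were higher in 6 of 6 pairs.

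The line difference had the same sign before 16 h for 13 of the 13 probe sets, at a time when 36.7% of all probe sets were higher and 63.3% lower in the selected line. Over the 24 earlier arrays, in a fit of all 36, 1386 of 8199 probe sets (16.9%) were called, and 12 of the 13 (92.3% of the 13, 0.866% of the 1386) were among them in the same direction. The exception was CG11211, at 0.33 before 16 h (adjusted p = 0.0945) and 1.19 late with 11 arrays. Across all 8199 probe sets the late difference and the difference before 16 h correlated at a Pearson r of 0.73 with 12 late arrays and 0.58 with 11. These are correlations across probe sets of the same 2 stocks, and probe sets are not independent replicates.

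**Figure D2:**
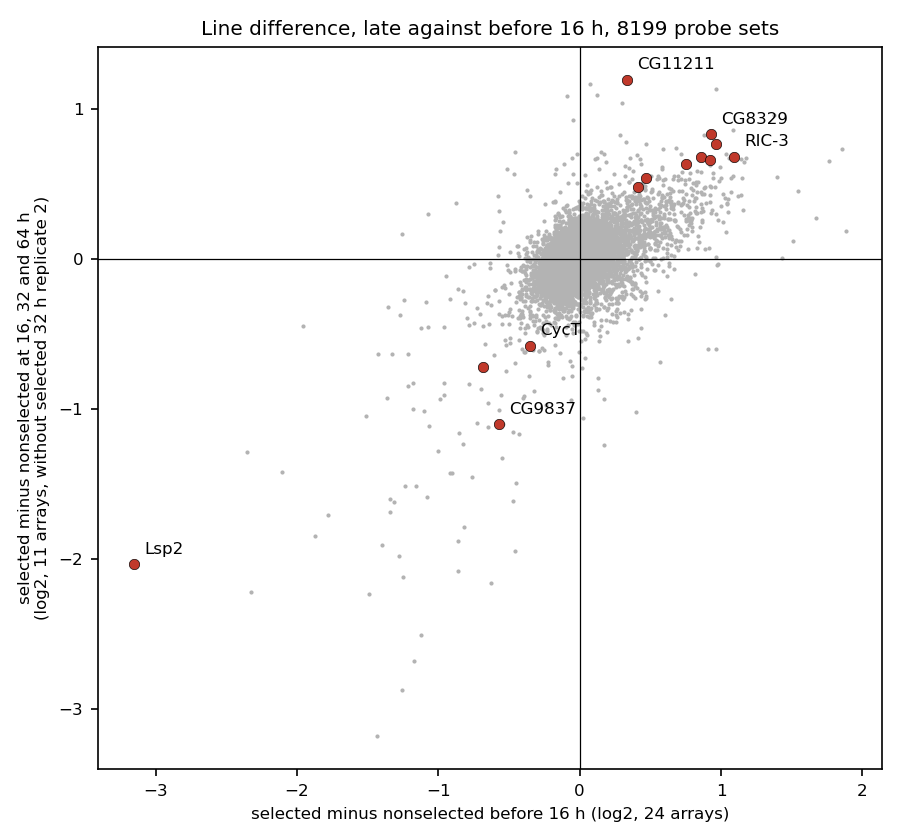
Selected minus nonselected difference before 16 h (x axis, log2, 24 arrays) against that at 16, 32 and 64 h (y axis, log2, 11 arrays) for 8199 probe sets, with the 13 called late in red. All 13 lie in the quadrants of equal sign, and Lsp2 lies lowest among them on both axes.

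Whether the line difference changed between late recovery and the earlier times was tested directly. With all arrays 0 of 8199 probe sets (0%) passed, and 256 (3.12%) had an unadjusted p under 0.05. The smallest adjusted p was that of CG18180, 0.236. It was 0.69 higher late and 0.46 lower before 16 h in the selected line, a change of 1.16 (SE 0.22). Leaving out 1 array at a time gave 0 to 16 calls, with 16 without selected 32 h replicate 1, which leaves the array that held male transcripts as the only selected array at 32 h, 9 without selected 64 h replicate 1, and 1 each without nonselected 16 h replicate 1 and replicate 2.

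The line by time interaction among 16, 32 and 64 h also called 0 probe sets (0%), with 116 (1.41%) at an unadjusted p under 0.05. The 5 probe sets of smallest p were those of Dr, a homeobox gene, the odorant-binding protein gene Obp83b, MFS9 and both probe sets of CG13947. CG13947 differed by 1.67 at 32 h and by -2.19 at 64 h on 1 probe set and by 1.78 and -2.09 on the other. Without selected 32 h replicate 1 the interaction called 29, but the array that held male transcripts is then the only selected array at 32 h and is assumed to vary like the other groups. Without selected 64 h replicate 1 it called 6, and without nonselected 16 h replicate 1 or replicate 2 it called 3 and 1. Taken singly, the 3 times called 0 each, with 67 (0.817%), 798 (9.73%) and 377 (4.6%) at an unadjusted p under 0.05 at 16, 32 and 64 h. The line differences at 32 and 64 h correlated at 0.57 across probe sets, and that at 16 h correlated with them at 0.06 and 0.09.

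Among the heat shock genes, Hsp68 and DnaJ-1 were lower in the selected line in 6 of 6 pairs, although neither passed the adjusted threshold. Hsp68 codes for an inducible chaperone of the Hsp70 family. It had reached 14.38 to 14.83 on the arrays at 0.25 h, from 8.14 to 9.41 untreated. In late recovery it ran from 8.48 to 10.32 in the selected arrays, median 9.23, and from 9.62 to 10.92 in the nonselected, median 10.07. The difference was -0.81 (SE 0.23, adjusted p = 0.281) with 12 arrays and -0.94 (SE 0.22, adjusted p = 0.162) with 11, against 0.17 (SE 0.15) before 16 h. All 6 nonselected values lay above the untreated range of both lines. Of the selected values, 3 lay lower, at 8.87 on replicate 1 at 32 h and at 8.48 and 8.64 at 64 h. These 3 were under both untreated selected values, 8.96 and 9.41, and within the range of both lines only through the untreated nonselected arrays, at 8.94 and 8.14.

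DnaJ-1, which codes for a J-domain partner of Hsp70 chaperones, ran from 9.89 to 10.45 against 10.09 to 10.80, a difference of -0.29 (SE 0.08, adjusted p = 0.277). Before 16 h it was 0.25 higher in the selected line (adjusted p = 0.0452). The change between the periods was -0.99 (SE 0.26, adjusted p = 0.998) for Hsp68 and -0.55 (SE 0.15) for DnaJ-1. Of the 8 tested heat shock genes, 4 were higher and 4 lower in the selected line with 12 arrays. With 11 arrays 3 were higher and 5 lower, and 0 passed with 12 or 11. Hsp26 and Hsp27, small heat shock proteins, differed by -0.22 and -0.34, while the transcription factor Hsf and the mitochondrial chaperone Hsp60A differed by 0.01 and 0.03. The median of the 8 was -0.11 and that of all tested probe sets -0.04.

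**Figure D3:**
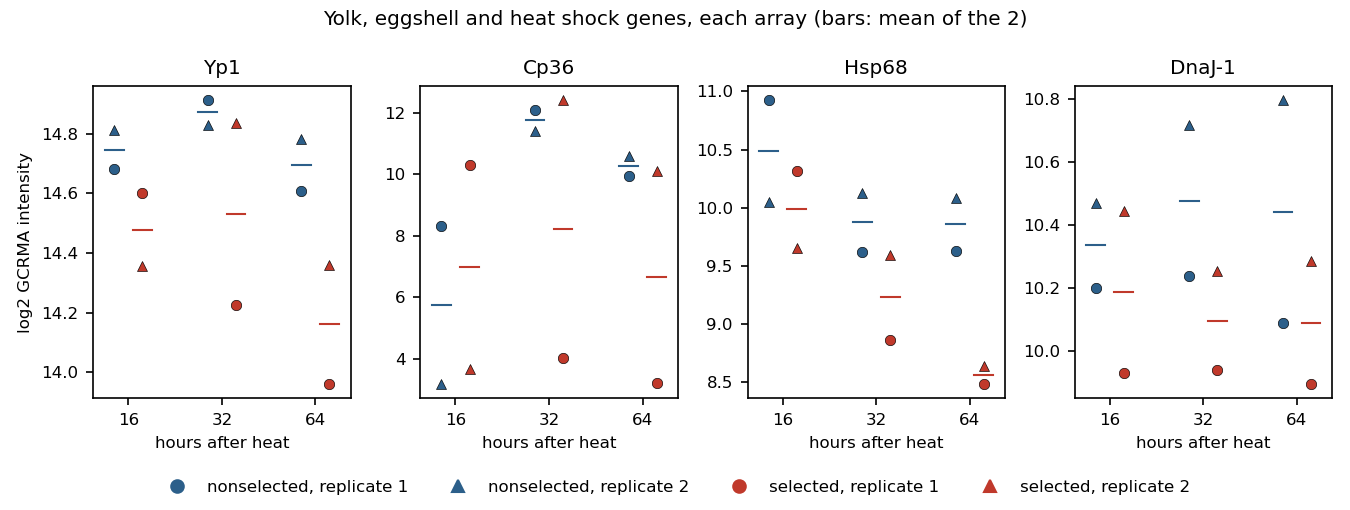
Level of Yp1, Cp36, Hsp68 and DnaJ-1 on each of the 12 late arrays (y axis, log2 GCRMA intensity) by hours after heat (x axis), with colours, symbols and bars for lines, replicates and means as in the legend. Hsp68 and DnaJ-1 were lower in the selected line in 6 of 6 pairs, and Cp36 ranged from 3.21 to 12.41 within the selected line.

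The 4 tested yolk genes were lower in the selected line, each with an unadjusted p under 0.05 and none past the adjusted threshold. Yp1 ran from 13.96 to 14.84 in the selected arrays, median 14.36, and from 14.61 to 14.91 in the nonselected, median 14.80, with a difference of -0.38 (SE 0.11, adjusted p = 0.299). Yp2 and Yp3 differed by -0.52 and -0.49. For these 3 the selected array was lower in 5 of 6 pairs, the pair of the array that held male transcripts being the exception. The gene yl, whose product is the yolk receptor of the oocyte, was 0.22 lower, in 6 of 6 pairs. The median of the list was -0.43 with 12 arrays and -0.52 with 11. Before 16 h all 4 were called lower in the selected line, in a comparison that called 9.28% of all probe sets lower.

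Eggshell genes varied widely between arrays of the same line. All 18 tested chorion and follicle cell genes had a lower mean in the selected line, with a median of -1.22, and 0 reached an unadjusted p under 0.05. Without the array that held male transcripts the median was -1.83 and 7 of the 18 had an unadjusted p under 0.05, all lower in the selected line, as had 6.28% of all probe sets in that direction. The pairs ranged from a median of -5.14 at 32 h replicate 1 to 1.52 at 32 h replicate 2. Cp36, a major chorion protein gene, lay at 4.01 and 3.21 on selected 32 h and 64 h replicate 1, at 3.67 on selected 16 h replicate 2 and at 3.18 on nonselected 16 h replicate 2, and between 8.33 and 12.41 on the other 8 late arrays. Low eggshell arrays thus occurred in both lines. Before 16 h, 0 of the 18 were called.

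Germline, cell cycle and proteasome genes had small list medians, which were nearer 0 without the array that held male transcripts. Of 28 tested germline genes 23 were lower in the selected line (median -0.10), and 15 without that array (median -0.01). Of 25 tested cell cycle and replication genes 25 were lower in the selected line and of 26 proteasome subunit genes 26, against 60.4% of all probe sets. Their medians were -0.21 and -0.11, and without the array that held male transcripts -0.06 and -0.04, with 16 of 25 and 21 of 26 lower against 53% of all. In that array's own pair the cell cycle median was -1.10. The gene otu, a deubiquitinase needed in oogenesis, was an exception. It ran from 10.06 to 10.44 in the selected arrays and from 10.52 to 10.69 in the nonselected, without overlap, with a difference of -0.43 (SE 0.07, adjusted p = 0.162) and -0.39 (adjusted p = 0.0722) without that array. It had been called lower before 16 h as well, by 0.31 log2 units.

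In all, 23 probe sets (0.281%) lay lower without overlap in the selected line and 8 (0.0976%) higher. Besides CycT and otu the lower ones included svr, a carboxypeptidase, at -0.41 (SE 0.08) on 1 of its 2 probe sets and -0.07 on the other, cic, a transcriptional repressor, at -0.51 (SE 0.12), and both probe sets of l(1)G0469, at -0.40 and -0.56. The higher ones included Pu, the GTP cyclohydrolase that starts pteridine synthesis, at 0.53 (SE 0.14), and CG13920, at least 1.497-fold higher since 4 nonselected arrays lay under an intensity of 32. None of them passed the adjusted threshold with 12 arrays, and these genes were picked after their values were seen.

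Genes of muscle, nerve and eye were mostly higher in the selected line. Of 25 tested muscle genes 24 had a positive difference and 14 an unadjusted p under 0.05, with a median of 0.53 with 12 arrays and 0.34 with 11. Of all probe sets 39.6% had a positive difference with 12 arrays (49.8% after centring each array on its median) and 47% with 11. TpnC41C, a troponin C of the thin filament, ran from 9.78 to 10.63 in the selected arrays, median 10.34, and from 8.62 to 10.25 in the nonselected, median 9.41, and was higher in 6 of 6 pairs by 0.84 (SE 0.16, adjusted p = 0.162) with 12 arrays and 0.70 (SE 0.11, adjusted p = 0.0678) with 11. The gene bt, which codes for the giant muscle protein projectin, was 0.80 higher (SE 0.16, adjusted p = 0.171), also in 6 of 6 pairs. A second probe set of bt differed by 0.21. None of the 25 passed the adjusted threshold with 12 or 11 arrays, and with 11 arrays 8 were higher with an unadjusted p under 0.05, as were 5.46% of all probe sets. Before 16 h, 19 of the 25 were called higher, in a comparison that called 7.62% of all probe sets higher.

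Of 16 tested photoreceptor genes 15 were higher, 8 with an unadjusted p under 0.05, with medians of 0.31 and 0.21 with 12 and 11 arrays. The light-activated cation channel gene trpl was 0.68 higher (SE 0.21), inaD, the scaffold of the phototransduction complex, 0.46 (SE 0.11), and the arrestin genes Arr1 and Arr2 0.39 and 0.31, each in 6 of 6 pairs. Of 34 tested neuronal genes, a list added after dlg1 and nwk had been seen, 30 were higher, 18 with an unadjusted p under 0.05, with medians of 0.34 and 0.26. Of all probe sets, 5.49% were higher with such a p with 12 arrays. As the neuronal list was added after called genes had been seen, its counts are a description only. They include 3 genes called with 11 arrays. The other 4 genes of the neuronal list were lower, 1 with an unadjusted p under 0.05 and 1 without overlap between the lines. Besides the called dlg1, RIC-3 and 7B2 this list held Eaat2, an excitatory amino acid transporter, at 0.76 (SE 0.15), ChAT, which makes acetylcholine, at least 1.20-fold higher since all 6 nonselected arrays and 1 selected array lay under an intensity of 32, and unc-13, which readies synaptic vesicles for release, at 0.55 (SE 0.10). Eaat2 and unc-13 were higher in 6 of 6 pairs and ChAT in 5, with an adjusted p of 0.162 to 0.171 for the 3. Without the array that held male transcripts, 17 of the 34 neuronal and 5 of the 16 photoreceptor genes were higher with an unadjusted p under 0.05, as were 5.46% of all probe sets.

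**Figure D4:**
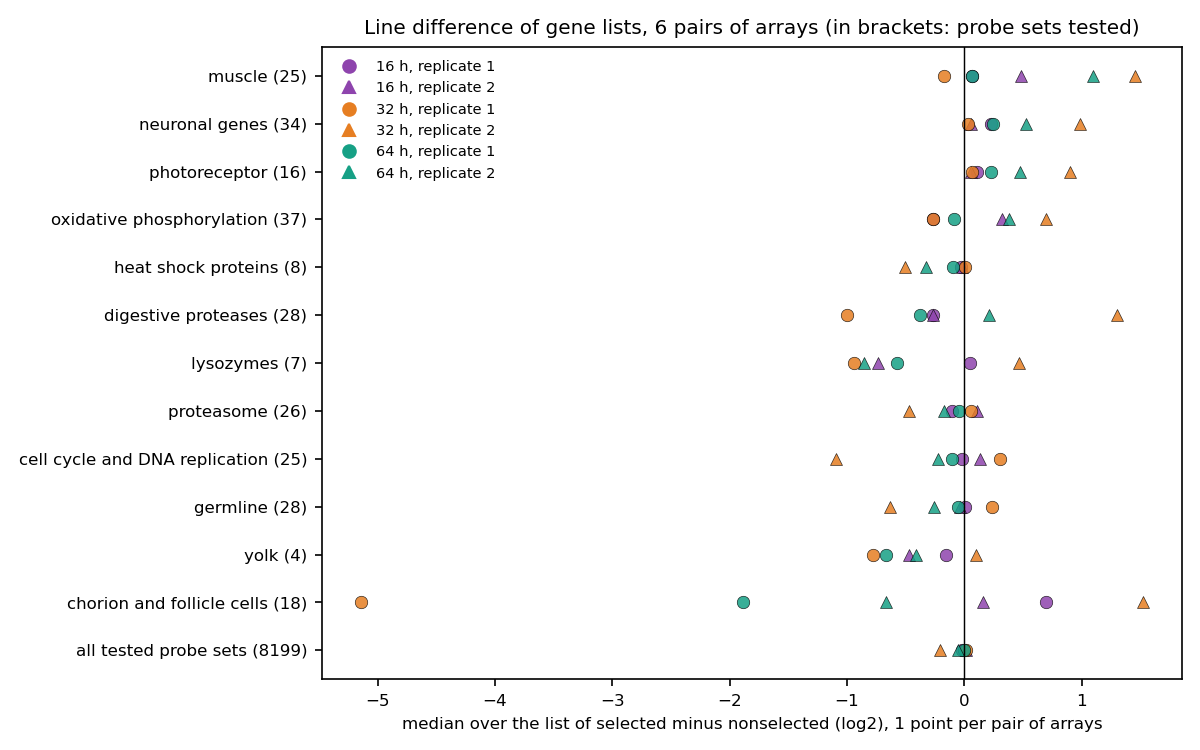
Median difference of 12 gene lists and of all tested probe sets (x axis, selected minus nonselected, log2) in each of the 6 pairs of arrays of the same time and replicate number, with colours for the time, circles for replicate 1 and triangles for replicate 2. Muscle pairs lay between -0.17 and 0.06 in replicate 1 and between 0.49 and 1.46 in replicate 2, and chorion pairs spread from -5.14 to 1.52.

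The muscle difference was uneven between the replicate numbers. In replicate 1 the pairs had list medians of 0.06, -0.17 and 0.06 at 16, 32 and 64 h, and in replicate 2 of 0.49, 1.46 and 1.10. The mean level of the list was 8.43 to 8.55 on the 3 late nonselected replicate 2 arrays and 9.25 to 9.97 on the other 9. Photoreceptor genes differed by a median of 0.17 in replicate 1 and 0.52 in replicate 2, and the neuronal list by 0.16 and 0.53. The replicate 2 values include the array that held male transcripts, whose own pair at 32 h stood at 0.90 and 0.99. The line difference in replicate 2 minus that in replicate 1 had a median of 0.30 for photoreceptor and 0.28 for neuronal genes. Without that array these medians fell to 0.12 and 0.09, and that of the muscle list from 0.82 to 0.64. Of 37 oxidative phosphorylation genes 34 were higher in the selected line with all late arrays (median 0.13), against 39.6% of all probe sets. Without the array that held male transcripts 24 were higher (median 0.04), against 47% of all probe sets. The medians of this list were -0.27 to -0.09 in the 3 replicate 1 pairs and 0.32 to 0.70 in the 3 replicate 2 pairs. The signs of this list were thus opposite in the 2 replicate numbers.

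A test of the line difference in replicate 2 minus that in replicate 1, added after these values were seen, called 37 of 8199 probe sets (0.451%), against 0 for the line difference itself. It also called 37 (0.451%) without the array that held male transcripts, 28 of them the same. In all 37 the estimate was lower for the selected line in replicate 1 and higher in replicate 2, with a gap of 1.06 to 5.09 log2 units. The test is of the gap and not of either sign. Some replicate 1 differences lay near 0, such as -0.02 for AQP and -0.07 for Mlc1. The 4 largest gaps were those of Act88F, fln, TpnC4 and Strn-Mlck. Act88F is the actin of the indirect flight muscles, fln codes for flightin of their thick filaments, TpnC4 for their troponin C and Strn-Mlck for a myosin light chain kinase.

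Act88F lay at 10.61, 11.10 and 9.22 on the nonselected replicate 1 arrays at 16, 32 and 64 h and at 8.59, 9.60 and 7.98 on the selected replicate 1 arrays. In replicate 2 it lay at 7.60, 8.42 and 6.37 in the nonselected line and at 10.80, 11.17 and 10.91 in the selected line. The selected line was therefore lower in 3 of 3 replicate 1 pairs and higher in 3 of 3 replicate 2 pairs. The line difference was -1.59 in replicate 1 and 3.50 in replicate 2, a gap of 5.09 (SE 0.44, adjusted p = 0.0064), and 5.42 (SE 0.38, adjusted p = 0.0021) without the array that held male transcripts. The mean over both replicate numbers was 0.96 (SE 0.83, adjusted p = 0.656), so the fit with line, time and replicate number gave no call for this gene.

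For fln the late line difference was -1.75 in replicate 1 and 2.91 in replicate 2 (gap 4.66, SE 0.52, adjusted p = 0.0242) and for TpnC4 -1.27 and 2.91 (adjusted p = 0.0362). The 2 tested probe sets of Strn-Mlck disagreed. One, under an intensity of 32 on 5 late arrays, differed by -1.69 and 2.21 (adjusted p = 0.0253), and the other by 0.13 and 0.57 (adjusted p = 0.42). The muscle list held 6 of the 37, the others being Mlp60A, a muscle LIM protein, and the myosin light chains Mlc1 and Mlc2. Of the 25 tested muscle genes 6 were thus called, against 0.451% of all probe sets, and 4 without the array that held male transcripts. Mlp60A (adjusted p = 0.0663) and Mlc2 (adjusted p = 0.068) were not called then. The remaining 31 included Mpcp1, a mitochondrial phosphate carrier, at a gap of 2.28, SdhB, a subunit of succinate dehydrogenase, at 1.06, and Jhbp3, Jhbp7, Jhbp13 and Jhbp14, annotated as juvenile hormone binding proteins, at 1.27 to 1.63. Without the array that held male transcripts, SdhB (adjusted p = 0.0502) and Jhbp14 (adjusted p = 0.0772) were not called.

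**Figure D5:**
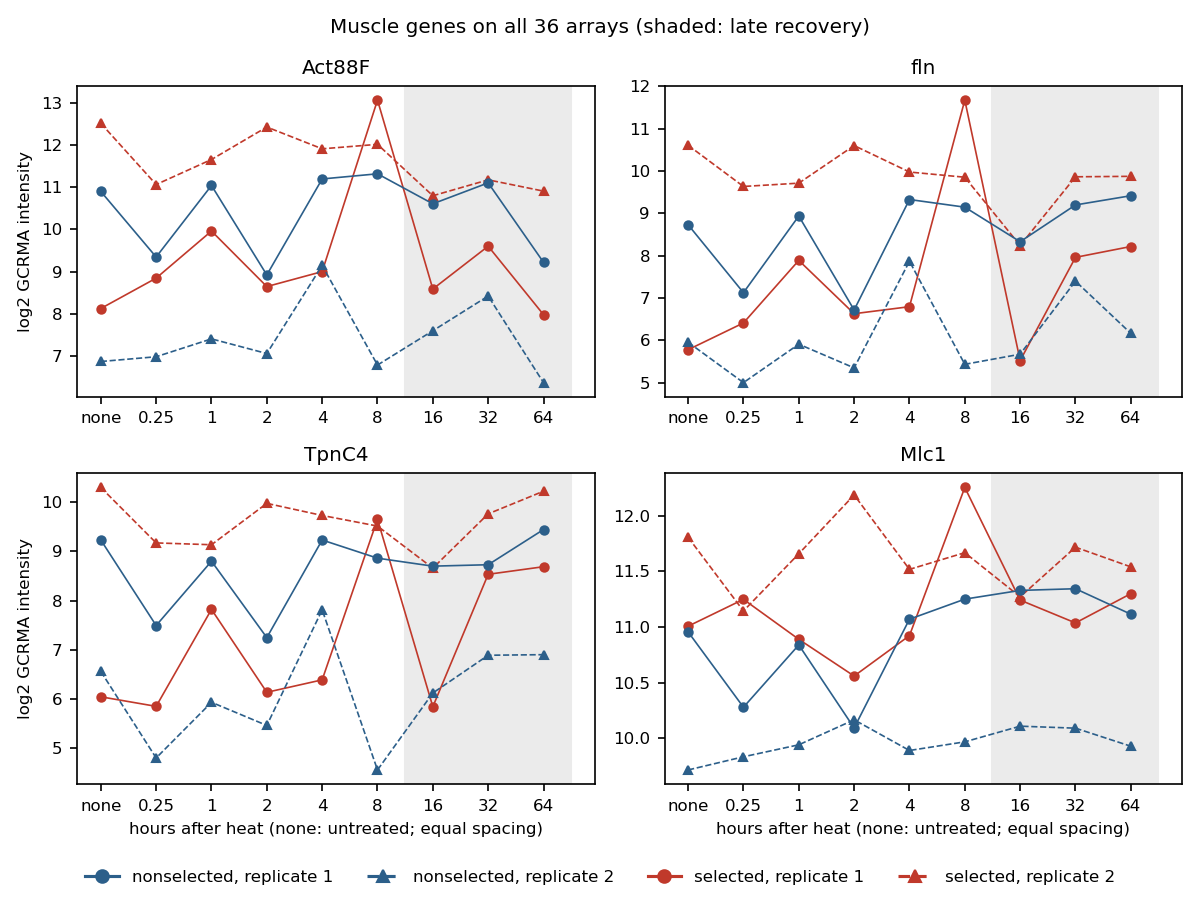
Level of Act88F, fln, TpnC4 and Mlc1 on all 36 arrays (y axis, log2 GCRMA intensity) by hours after heat (x axis, equal spacing, none for untreated), with lines in blue and red, solid lines and circles for replicate 1, dashed lines and triangles for replicate 2, and late recovery shaded. Act88F was 6.37 to 9.15 on the 9 nonselected replicate 2 arrays and 10.80 to 12.51 on the 9 selected replicate 2 arrays.

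The same gap was measured on the 24 arrays before 16 h, which entered the filter but not the test that called the 37. They share lines and replicate numbers with the late arrays, so they do not give an independent repeat. There the test called 583 probe sets (7.11%), 390 of them (4.76%) higher in replicate 2. Of the 37, 31 were called in the same direction (83.8% of the 37, 5.32% of the 583), and 37 had the same sign of the gap. The selected line was not lower in replicate 1 for all of them. Before 16 h that difference was -0.85 for Act88F but 0.55 for AQP and 0.40 for Mlc1. Act88F had a gap of 5.41 (SE 0.81, adjusted p = 0.0013), with 6.78 to 9.15 on nonselected replicate 2 arrays, 11.06 to 12.51 on selected replicate 2 arrays, 8.92 to 11.32 on nonselected replicate 1 arrays and 8.12 to 13.06 on selected replicate 1 arrays. The gap was therefore present untreated and at early times as well as in late recovery. Line and replicate number together define 4 sets of 9 arrays, and whether each set came from a population of its own cannot be told from the labels.

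Across all probe sets, the late line difference in replicate 1 correlated with that in replicate 2 at -0.13, and at 0.07 without the array that held male transcripts. Within a replicate number, the late difference correlated with the difference before 16 h at 0.57 in replicate 1 and 0.77 in replicate 2. A fit over both replicate numbers favours genes that are alike in them, so the values of called genes by number are a description only. With 12 arrays, Lsp2 differed by -1.80 in replicate 1 and -2.69 in replicate 2, CycT by -0.46 and -0.79, CG8329 by 0.88 and 1.03, and dlg1 by 0.58 and 0.66.

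Listed digestive proteases and lysozymes, made in the gut, had lower medians in the selected line when the array that held male transcripts was left out. The protease list held Jonah, trypsin and Ser genes and yip7. Other protease genes were outside it, so its median does not describe proteases as a whole. CG8329 and CG9676, called higher in the selected line with 11 arrays, were not on this list. Of 28 proteases 18 were lower with 12 arrays (median -0.05) and 24 with 11 (median -0.31, 9 with an unadjusted p under 0.05, against the 6.28% of all probe sets). The serine protease genes Jon25Bi and Jon25Bii differed by -0.93 (SE 0.52) and -1.24 (SE 0.68) with 12 arrays, and by -1.45 (SE 0.31, adjusted p = 0.146) and -1.91 (SE 0.44, adjusted p = 0.148) with 11. Without selected 32 h replicate 1, which leaves the array that held male transcripts as the only selected array at 32 h, Jon25Bi differed by -0.52. The pair of that array stood at a median of 1.30 and the pair of replicate 1 at the same time at -0.996. Of 7 lysozymes 5 were lower (median -0.45), and 6 with 11 arrays (median -0.68). LysB, LysC, LysD and LysE are near-identical copies and their probe sets may share signal. None of these genes passed the adjusted threshold with 12 or 11 arrays.

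Single members of the metabolic and olfactory lists were uniform over the 6 pairs without passing the adjusted threshold. Of 54 cytochrome P450 genes Cyp4e1, Cyp9c1 and Cyp6a23 were higher in 6 of 6 pairs, Cyp9c1 by 0.48 (SE 0.12) and Cyp6a23 by 0.54 (SE 0.21). Cyp4e1, with 3 nonselected arrays under an intensity of 32, was at least 1.40-fold higher. Cyp4p2, with 5 selected and 2 nonselected arrays under it, and Cyp6v1, at -0.26, were lower in 6 of 6 pairs. For comparison, 2.6% of all probe sets were higher and 3.39% lower in 6 of 6 pairs. The hexokinase gene Hex-C ran from 8.67 to 9.11 in the selected arrays and from 8.30 to 8.88 in the nonselected, a difference of 0.36 (SE 0.07, adjusted p = 0.171). The odorant-binding protein gene Obp44a was 0.81 higher (SE 0.16, adjusted p = 0.171). Of 29 tested antimicrobial and immune recognition genes 17 were higher and 12 lower, with a median of 0.01, and of 28 glutathione S-transferase genes 18 were higher and 10 lower, with a median of 0.03. Of the 8 listed Turandot stress genes 2 had a probe set and 0 passed the filter.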

How the data were processed

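Per the submitters' processing notes the authors used GCRMA, with no version given, and the deposited files hold linear intensities. The arrays carried biotin-labelled total RNA, and the number of arrays, not a depth, limits the precision. Log2 was taken without a pseudocount. Probe sets were named through the platform annotation and RefSeq symbols, and tested where the mean of the 4 highest of 36 arrays was at least 5. The genome build is not given in the sources used here, and no positions are printed. Line differences were estimated by limma 3.58.1 under R 4.3.3 (line, time and replicate number, 12 arrays, 7 residual degrees of freedom), with Benjamini-Hochberg adjustment over 8199 probe sets, and repeated without selected 32 h replicate 2. Differences before 16 h came from a fit of all 36 arrays. Arrays of this design were also simulated with independent noise and 50 changed probe sets at each of 0.5, 1, 2 and 4 log2 units. There 50% of changes of 0.5 and 82% of changes of 1 log2 unit were recovered. The simulation left out deviations shared by the probe sets of an array, so these shares do not give the power of this comparison.

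Gene names were to come from the 15 highest and 15 lowest called differences with 6 of 6 pairs alike, which took 0 genes, the 5 smallest p of the interaction, called changes between periods, and any gene list member. The genes called without selected 32 h replicate 2, those without overlap and those of the replicate number test were named after their values were seen. The comparison and the 30 gene lists were chosen with earlier results of these data known. The deviations of same-numbered arrays correlated from 0.24 to 0.71 among 5 of the 6 groups, and from -0.43 to 0.29 with selected 32 h. These correlations also span groups of different times, so they do not test whether arrays of the same time and number are matched. The fit did not take such arrays as matched pairs. Counts over 6 pairs do match arrays by time and replicate number, and are a description only. Replicate number entered the fit as the covariate stated for the comparison.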

Additional observations from a re-analysis of the deposited data

Results flagged for a closer look

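In late recovery, 86 sets of 6 arrays were examined for a single array far from the others, 1 set per line for each gene list and called gene, and 3 stood out. Chance flags about 1 in 20 such sets. The mean level of the tested male reproductive genes was 12.04 on selected 32 h replicate 2 and 7.52 to 7.77 on the other selected arrays. The mean level of the glutathione S-transferase genes was 8.19 on nonselected 16 h replicate 1 and 7.74 to 7.90 on the other nonselected arrays. The mean level of the neuronal list was 6.26 on selected 16 h replicate 2 and 6.70 to 6.92 on the other selected arrays.

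The line difference differed between the replicate numbers for 37 probe sets, by the interaction test added after the data were seen. The largest gaps, replicate 2 minus replicate 1, were 5.09 for Act88F, 4.66 for fln, 4.18 for TpnC4 and 3.90 for 1 probe set of Strn-Mlck, whose other probe set had a gap of 0.44 (adjusted p = 0.42).

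Among probe sets below the filter, the ejaculatory bulb gene EbpII stood at 10.72 on selected 32 h replicate 2 and at 2.04 to 2.53 on the other 35 arrays.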

How the results depend on the processing

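The number of probe sets called for the late line difference was 0 with all 12 arrays, 0 to 13 when 1 array was left out (13 when selected 32 h replicate 2 was missing and 1 when nonselected 64 h replicate 1 was), 77 when all 36 arrays entered the fit, 8 when the array with male transcripts was then left out (71 of the 77 were lost), 54 with array weights, and 1 (Lsp2) with no replicate block. Gene list members called numbered 0, then 0 to 4, 13, 2, 17 and 1 in the same order. No other alternative moved either count. The interaction of line and time gave 0 to 29 calls when 1 array was left out, and the late minus earlier difference 0 to 16, the highest counts being without selected 32 h replicate 1, when the array with male transcripts is the only selected one at 32 h. With no replicate block both stayed at 0. List medians were checked for chorion, yolk, muscle, photoreceptor, neuronal, heat shock, protease and lysozyme genes only. None moved by over 1 SD of its 6 pairs. That SD includes the pair of the array with male transcripts and is a wide limit, 2.39 for the chorion list. Median centring put 49.8% of probe sets higher in the selected line and quantile normalization 44.2%, against 39.6%.

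Signs turned only for genes without a call: CG13947, at -0.60 to 0.23 and -0.60 to 0.25 on its 2 probe sets when 1 array was left out, to 0.057 at 16 h and to 1.67 and 1.78 at 32 h; Dr to -0.29 and CG18180 to -0.036 at 16 h; smp-30 to -0.20 and Obp83b to -0.90 at 32 h; Ance-4 to -0.025 at 64 h. The arrays carry no detection calls, and levels under an intensity of 32 are bounds.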
